A study of Mus musculus with 8 samples.

Results

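The 85 genes described here are named after proteins of the cytosolic ribosome. They are the rows of a 14126-gene islet expression table whose symbol begins with Rpl or Rps and a digit, together with Rpsa, Rplp0, Rplp1 and Rplp2. Rps6 kinases, Rps19bp1 and 37 rows named as pseudogene models with the suffix -ps were left out. The choice used symbols and no measured value. By name, 35 of the members belong to the small (40S) subunit and 50 to the large (60S) subunit. The annotation calls 81 of them protein-coding and 4 pseudogenes (Rpl37rt, Rpl6l, Rps3a2 and Rps4l). All 85 passed the filter on low values.

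The table came from RNA sequencing of pancreatic islets, the hormone-secreting cell clusters of the pancreas. The mice were of the strain NOD/ShiLtJ, which develops autoimmune diabetes, and were 7 weeks old. The 4 WT mice carried IRE1αfl/fl, a floxed form of Ern1, which encodes the endoplasmic reticulum stress sensor IRE1α. The 4 KO mice are labelled IRE1αβ-/-. The labels do not spell out the β, and the title of the series speaks of beta cells, the insulin-secreting cells. The same protocol, tamoxifen at 10 mg/ml injected into the peritoneum on 5 consecutive days to switch on Cre, is recorded for both groups, and neither the Cre driver nor whether WT mice carried it is given in the sources used here. Islets were picked by hand and read whole, so fewer cells of a type and less RNA per cell cannot be told apart.

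Each ribosome carries 1 copy of nearly all of these proteins, and a pool of equal parts has to be made for subunits to be assembled. Their mRNAs are among the most abundant of a cell. Most begin with a C followed by a run of pyrimidines, the 5′ terminal oligopyrimidine tract, through which mTOR signalling sets how well they are translated. The genes have left many processed copies in the mouse genome, which makes short reads hard to place. In beta cells the ribosomes on the endoplasmic reticulum make proinsulin in very large amounts, and IRE1α senses the folding load there.

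The windows around the annotated start are shown for 7 of the 9 members that passed the test between genotypes, because the tract lies there. The other two, Rpl23a and Rps3a2, were not matched to an entry. They are from RefSeq (GRCm38.p6), 30 bases before to 15 bases from the start onwards, 5′ to 3′ on the gene's strand. Capitals mark a C within 10 bases of the start with at least 5 pyrimidines (C or T) after it.
Rpl34, first listed start (chr3:130730323-130730367, minus strand): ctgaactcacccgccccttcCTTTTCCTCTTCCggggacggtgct
Rpl34, second listed start (chr3:130730384-130730428, minus strand): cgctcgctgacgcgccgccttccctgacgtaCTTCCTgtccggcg
Rpl39 (chrX:37085208-37085252, minus strand): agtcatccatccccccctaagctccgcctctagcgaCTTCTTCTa
Rps2 (chr17:24720033-24720077, plus strand): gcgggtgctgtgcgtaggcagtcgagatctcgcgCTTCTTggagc
Rpl27 (chr11:101442215-101442259, plus strand): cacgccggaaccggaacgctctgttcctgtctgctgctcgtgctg
Rps6 (chr4:86857353-86857397, minus strand): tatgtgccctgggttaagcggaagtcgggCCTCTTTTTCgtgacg
Rpl23 (chr11:97782425-97782469, minus strand): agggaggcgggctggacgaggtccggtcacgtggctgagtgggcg
Rpl36a (chrX:134585624-134585668, plus strand): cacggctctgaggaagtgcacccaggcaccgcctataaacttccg

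RefSeq entries were matched for 62 of the 85 members. Such a run was present for 34 of the 62 (54.8%) on the gene's strand and for 5 (8.06%) on the opposite strand. Over all 27025 genes with an entry the shares were 21.9% and 25.2%. Among the called members shown, the run was found for Rpl34, Rpl39, Rps2 and Rps6 and not for Rpl27, Rpl23 and Rpl36a. A match is a description of these letters, and no match says only that the run is not in this window.

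The deposited values are normalized counts rounded to whole numbers, and the sequencing depth behind them is unknown. They summed to between 32024139 and 34858983 per library. Ern1 was higher in the KO libraries (7223, 7390, 6922 and 7216) than in the WT libraries (5549, 5164, 4622 and 4500), so the gene-level value does not check the knockout label, which may concern only part of the transcript. The RNA shares of several cell type markers differed between the genotypes, which does not tell cell numbers from RNA per cell. Of 10 beta cell markers 7 fell, and their summed share of a library was 16.0% to 17.8% in WT and 7.53% to 10.4% in KO. Of 6 alpha cell markers 5 rose (1.15% to 2.98% in WT, 5.68% to 7.72% in KO), as did 5 of 5 delta and PP cell markers (0.298% to 0.489% in WT, 0.865% to 1.16% in KO). None of 13 acinar markers passed limma's test (7 had an unadjusted p under 0.05), and their share ran from 0.0700% to 1.01% in WT and from 0.500% to 1.50% in KO. Of 5 duct markers 2 rose (0.0163% to 0.0189% in WT, 0.0337% to 0.0819% in KO). No marker of these 5 lists was at 0 in any library. Their part in the ribosomal protein values was not tested.

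The share of a library taken by ribosomal protein genes differed between the genotypes by less than the spread among WT libraries. Their values summed to 1.48%, 1.62%, 1.58% and 1.31% of the total in WT replicates 1 to 4 and to 1.50%, 1.54%, 1.51% and 1.48% in the KO replicates. The means were 1.50% ± 0.14 (SD, n = 4) and 1.51% ± 0.02 (SD, n = 4). The KO range lies inside the WT range, and WT replicate 4 is the lowest of the 8 libraries. Without it the WT mean was 1.56% ± 0.07 (SD, n = 3). The small subunit took 0.601% ± 0.067 in WT and 0.612% ± 0.011 in KO, and the large subunit 0.894% ± 0.072 and 0.894% ± 0.014 (SD, n = 4 each).

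Single members differed widely in level. WT means per kilobase of transcript ran from 188 for Rpl6l and 453 for Rps27rt, both intron-less copies, to 23772 for Rpl41 and 27221 for Rpl10, with a median of 7299. Rpl10 helps to form the tRNA sites of the large subunit, and Rpl41 is the smallest ribosomal protein. Among the lowest members, Rpl29 is a spliced gene of the large subunit at 476. Each length is that of a single annotated transcript, chosen for the longest coding sequence, and these levels depend on that choice. Rps20, for example, was given 3706 bases for a coding sequence of 357.

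**Figure D1:**
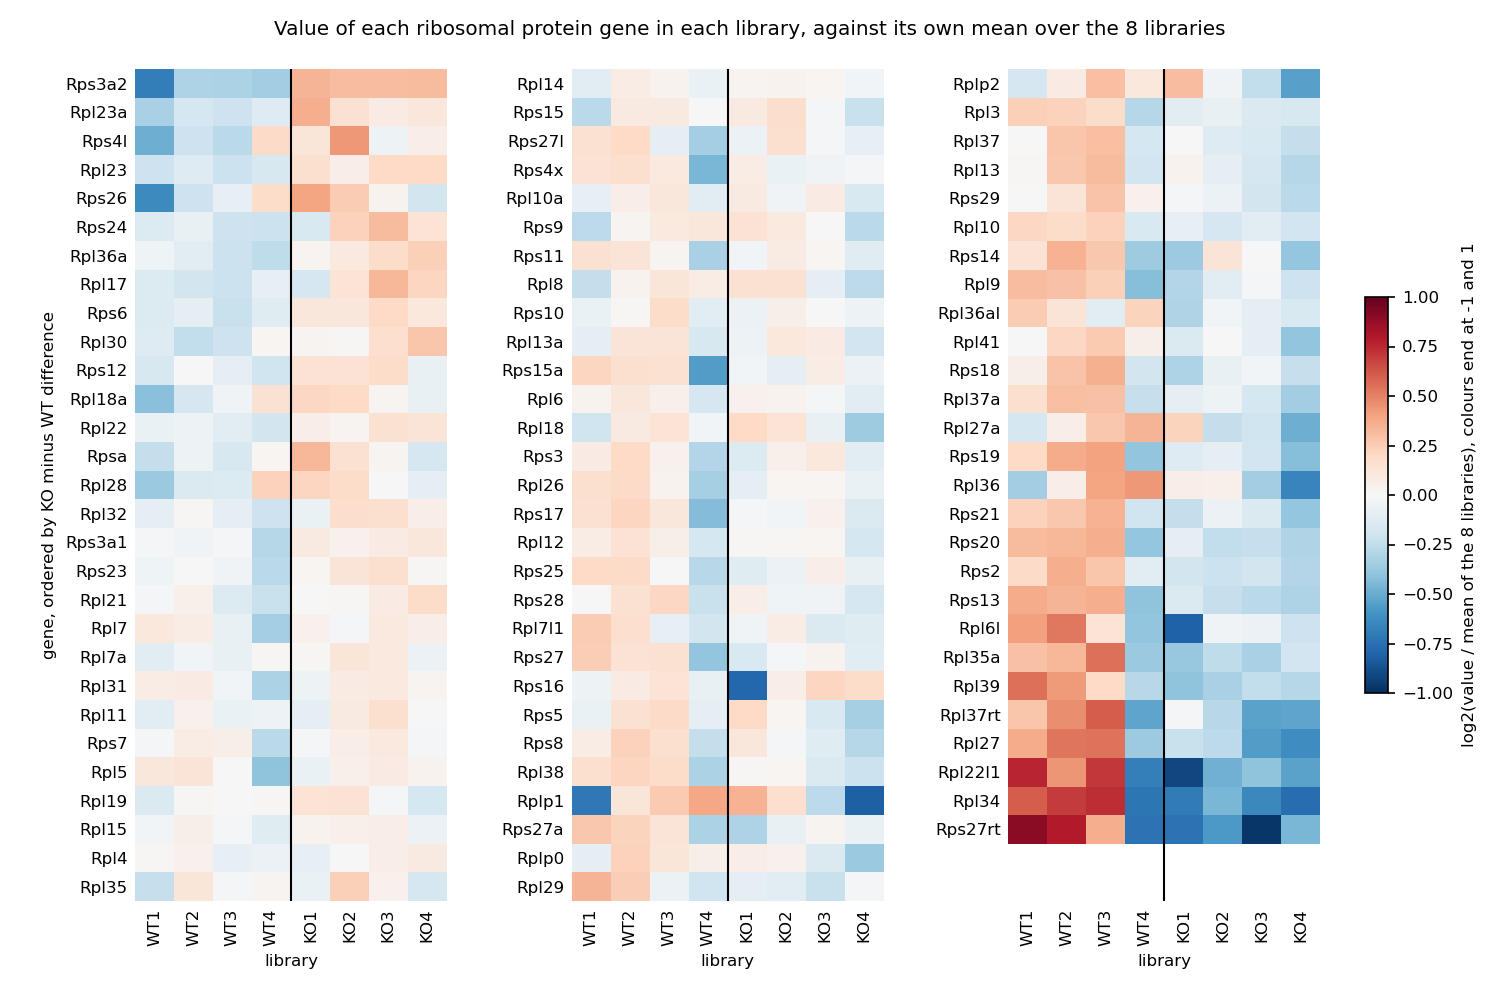
Each cell is the log2 of a gene's value in 1 library over its mean across the 8 libraries, for the 85 ribosomal protein genes ordered by the KO minus WT difference (columns: WT and KO replicates 1 to 4). Most cells are pale, and at the bottom of the order WT replicate 4 is as blue as the KO libraries while WT replicates 1 to 3 are red.

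KO was compared with WT to ask which ribosomal protein genes changed with the genotype. The test was limma's moderated test on log2(value + 1), fitted to 14121 genes with Benjamini-Hochberg adjustment at 0.05. Of the 85 members 5 were higher in KO and 4 were lower, and 76 did not pass. Over all tested genes 11.1% were higher and 9.81% lower, and among the members these shares were 5.88% and 4.71%. The median log2 difference was -0.03 over the members and -0.0008 over all genes. The sign of the members' median depends on the scaling. It was 0.006 with equal library totals, where the median over all genes was 0.036. After quantile normalization it was 0.04, and the median over all genes was -0.03. The members' median thus stayed below that of all genes with equal totals and lay above it after quantile normalization. Without adjustment, 26 members (30.6%) had a p under 0.05, against 4942 genes (35.0%) in the table.

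The risers include 2 genes of neighbouring names but different places in the ribosome. Rpl23a lies at the exit of the peptide tunnel, where nascent chains meet the signal recognition particle (chromosome 11, 78180932 to 78183584, GENCODE M21 on GRCm38, as for all gene positions here). It read 5729, 6379, 6222 and 6586 in WT and 9250, 7982, 7608 and 7776 in KO. Every KO library was above every WT library, and the log2 difference was 0.39 ± 0.08 (SE), with an adjusted p of 0.0128. Rpl23, which sits on the face of 60S that meets the small subunit, read 7581, 8014, 7556 and 7847 in WT and 9792, 9189, 10049 and 10034 in KO. These groups did not overlap either, with a difference of 0.33 ± 0.06 and an adjusted p of 0.00740. Both calls held without each library in turn, with adjusted p-values of at most 0.0333 for Rpl23a and 0.0285 for Rpl23.

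Rps6, the 40S protein that is phosphorylated by S6 kinases downstream of mTOR, read 13491, 13911, 12689 and 13614 in WT and 16028, 16049, 17036 and 15945 in KO. All 4 KO libraries were higher than all WT libraries. The log2 difference was 0.28 ± 0.07 with an adjusted p of 0.0198, and the call was lost without WT replicate 3 (0.0513) or KO replicate 3 (0.0657). In the authors' deposited table its FDR was 0.179. Rpl36a, a 60S protein near the tRNA exit site, read 2601, 2493, 2307 and 2240 in WT and 2720, 2861, 3034 and 3152 in KO. The groups did not overlap, at 0.29 ± 0.08 and an adjusted p of 0.0318. The call was lost without any of WT replicates 2, 3 and 4 or KO replicates 2, 3 and 4 (up to 0.0869), and with the replicate number as a block (0.0556). Its paralog Rpl36al went the other way without passing the test, with means of 5212 ± 564 in WT and 4317 ± 339 in KO (SD, n = 4).

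Rps3a2 had the largest rise, and it is a single-exon copy of Rps3a1 that the annotation calls a processed pseudogene (chromosome 14, 88123017 to 88123808, minus strand). It read 671, 876, 867 and 851 in WT and 1369, 1340, 1338 and 1347 in KO. The KO libraries lay close together and all above WT. The log2 difference was 0.73 ± 0.10, with an adjusted p of 0.00126 that stayed at or below 0.00565 without any single library. Rps3a1 itself, a 40S protein near the mRNA exit, read 17225, 17038, 17214 and 14350 in WT and 18614, 18048, 18515 and 18931 in KO. Its groups did not overlap, but the difference of 0.17 ± 0.08 did not pass (adjusted p = 0.165).

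The 792 bases of Rps3a2 differ from the Rps3a1 coding sequence at 4 positions, 99.5% identity, and share a run of 317 identical bases. A read that covers none of these positions fits both genes. The stretch with most differences, coding positions 627 to 686 of Rps3a1 (GENCODE M21 transcripts), is shown with the differing bases in capitals.
Rps3a1: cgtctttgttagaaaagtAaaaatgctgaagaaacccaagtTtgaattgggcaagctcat
Rps3a2: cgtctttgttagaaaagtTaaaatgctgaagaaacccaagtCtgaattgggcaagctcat
Added together, the pair read 17896, 17914, 18081 and 15201 in WT and 19983, 19388, 19853 and 20278 in KO, a ratio of means of 1.15. The copy held 4.73% of the WT sum. How the authors' counting divided reads between them is uncertain.

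**Figure D2:**
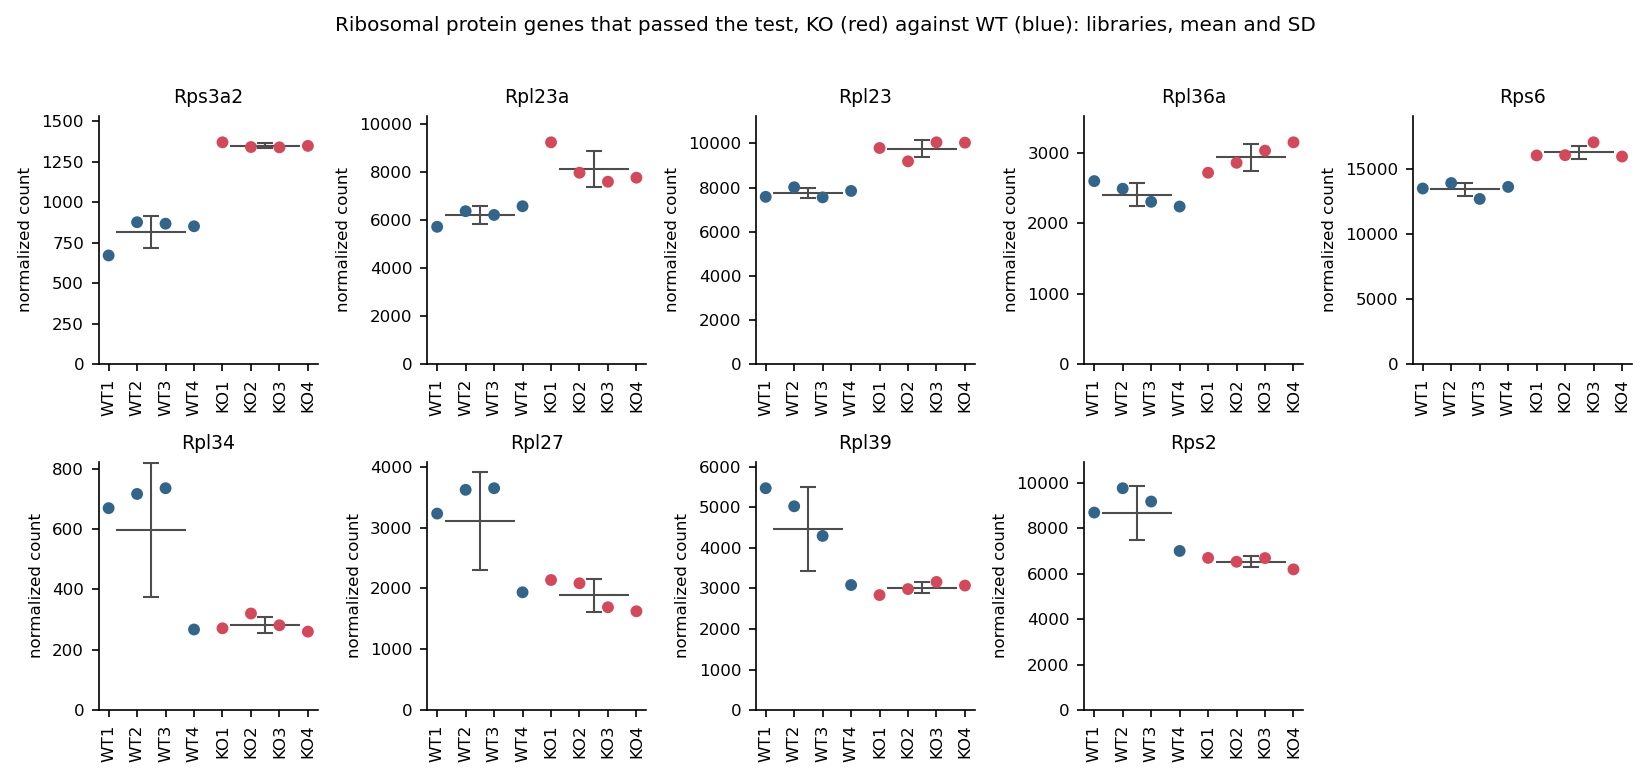
Normalized counts of the 9 ribosomal protein genes that passed the test, by library, with the group mean and SD (WT blue, KO red, linear axes from 0). The 5 risers in Rps3a2, Rpl23a, Rpl23, Rpl36a and Rps6 show no overlap, whereas in Rpl34, Rpl27 and Rpl39 WT replicate 4 lies among the KO libraries.

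The genes that fell were Rps2, Rpl39, Rpl27 and Rpl34. Rps2, part of the 40S mRNA entry channel (chromosome 17, 24718116 to 24721929), read 8702, 9774, 9188 and 7011 in WT and 6704, 6535, 6697 and 6200 in KO. It was the only 1 of the 4 whose groups did not overlap. The log2 difference was -0.40 ± 0.10 with an adjusted p of 0.0267. Rpl39, a small protein lining the lower peptide tunnel (chromosome X, 37082520 to 37085402), read 5469, 5024, 4293 and 3083 in WT and 2836, 2983, 3159 and 3070 in KO. WT replicate 4 lay inside the KO range, and the difference was -0.54 ± 0.16 with an adjusted p of 0.0438.

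Rpl27, a 60S surface protein (chromosome 11, 101442298 to 101445529), read 3231, 3622, 3648 and 1937 in WT and 2139, 2085, 1691 and 1625 in KO. The first 3 WT libraries were well above KO and the last was not, with a difference of -0.69 ± 0.20 and an adjusted p of 0.0416. Rpl34, also of the 60S subunit (chromosome 3, 130726831 to 130730398), read 669, 716, 735 and 267 in WT and 271, 320, 281 and 260 in KO. Again WT replicate 4 was at the KO level. The difference was -0.97 ± 0.30 with an adjusted p of 0.0494. Each of the 4 calls was lost without any 1 of WT replicates 1, 2 and 3 and KO replicates 1 to 4 (adjusted p up to 0.123 for Rpl34, 0.106 for Rpl27, 0.112 for Rpl39 and 0.0725 for Rps2), and had smaller adjusted p-values without WT replicate 4 (0.00036 for Rpl34, 0.00208 for Rpl27, 0.00232 for Rpl39 and 0.00309 for Rps2). With equal library totals the adjusted p was 0.0605 for Rpl34, 0.0552 for Rpl27, 0.0638 for Rpl39 and 0.0499 for Rps2, so that the call of Rps2 alone held there. With hormone and mitochondrially encoded genes left out of the totals none of the 4 held (0.0583 for Rps2), and after quantile normalization Rpl34 held (0.0435) and Rps2 did not (0.0528).

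The Rpl34 row holds only a small share of the reads of its sequence. Rpl34-ps1, a processed pseudogene on chromosome 6 (71124610 to 71124963, plus strand), differs from the Rpl34 coding sequence at 2 of 351 positions (99.4% identity). Its row read 3150, 3293, 3365 and 2667 in WT and 3446, 3422, 3270 and 2715 in KO. It held 83.9% of the pair's sum in WT. The stretch around 1 of the differences, coding positions 102 to 161, is shown with that base in capitals.
Rpl34: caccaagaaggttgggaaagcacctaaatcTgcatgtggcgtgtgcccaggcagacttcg
Rpl34-ps1: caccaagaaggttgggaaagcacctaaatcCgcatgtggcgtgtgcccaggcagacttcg
The sum of both rows was 3819, 4009, 4100 and 2934 in WT and 3717, 3742, 3551 and 2975 in KO. WT replicates 1 to 3 still lay above all KO libraries, by less than in the Rpl34 row, and WT replicate 4 lay below them. The ratio of KO to WT means was 0.941 for the sum, or 0.879 with WT replicate 4 left out, and 0.474 for the Rpl34 row alone. How reads were divided between the rows is uncertain.

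Copies also held most of the summed values for Rpl35a, 76.0% in WT, but its sum differed between the genotypes much as its row did. The ratio of KO to WT means was 0.695 for the row and 0.7425 for the sum. The Rpl35a row read 1253, 1291, 1501 and 794 in WT and 788, 858, 819 and 898 in KO. It did not pass limma's test (adjusted p = 0.0805). Rpl35a-ps2, 1 base different over 330, read 4698, 3908, 3596 and 1364 in WT and 1623, 1676, 1845 and 1763 in KO. Rpl35a-ps3 and Rpl35a-ps4 held the same values as each other in every library, 48, 204, 161 and 450 in WT and 483, 640, 649 and 567 in KO, so the opposite order. The sum over the gene and its 3 copies was 5033 ± 1343 in WT and 3737 ± 251 in KO (SD, n = 4), with WT replicate 4 the lowest of all 8 at 3058.

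Of the 37 rows named -ps, 8 (21.6%) were higher in KO and none was lower by limma's test, beside 11.1% and 9.81% of all genes. An unadjusted p under 0.05 was found for 14 of the 37, beside 35.0% of all genes. With the identical rows Rpl35a-ps3 and Rpl35a-ps4 counted once, 7 of 36 (19.4%) were higher. Without WT replicate 4, 9 of the 37 were higher and 3 lower, beside 11.9% and 11.3% of all genes. With the replicate number as a block, 9 were higher and 1 lower, beside 14.2% and 11.7%. Rpl14-ps1 read 656, 727, 663 and 1369 in WT and 1541, 1329, 1425 and 1569 in KO, and Rps13-ps1 read 0, 0, 4 and 109 in WT and 35, 61, 44 and 65 in KO. In both, WT replicate 4 was on the KO side. Rps24-ps3 rose by 0.57 (adjusted p = 0.00332) and held 39.2% of its family's WT sum.

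**Figure D3:**
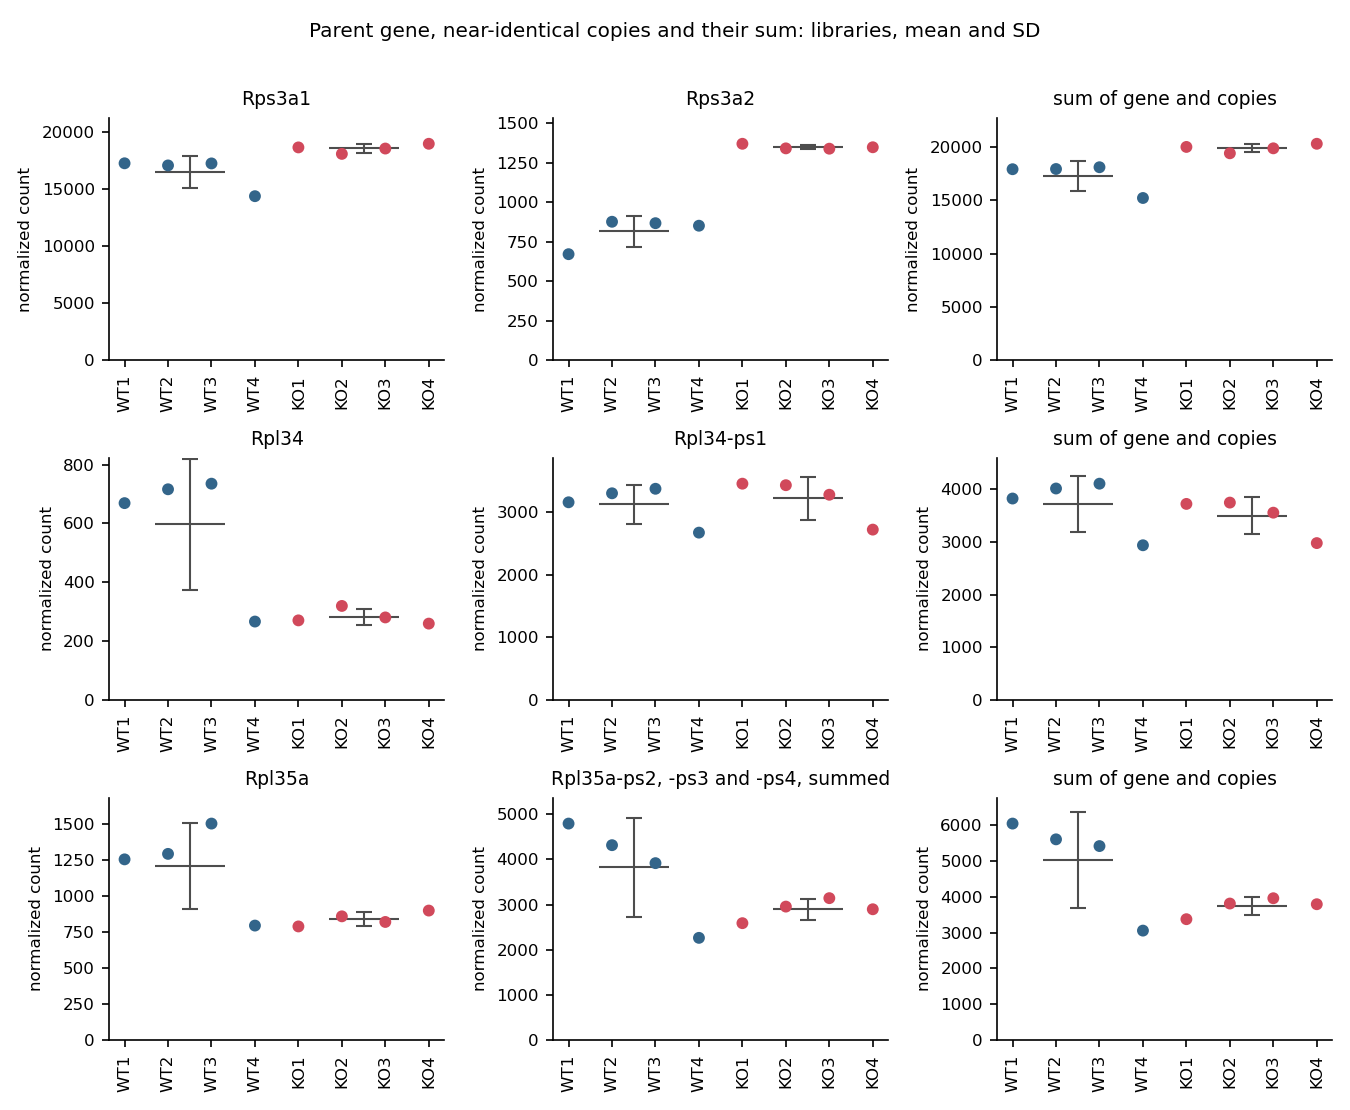
Normalized counts by library for 3 parent genes (left), their near-identical copies (middle) and the sum (right), with group mean and SD (WT blue, KO red, linear axes from 0). The separation of Rpl34 between WT replicates 1 to 3 and KO is much narrower in its sum, that of Rps3a1 and Rps3a2 remains, and that of Rpl35a remains except for WT replicate 4.

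WT replicate 4 stood apart from the other WT libraries across the ribosomal protein genes. It had the lowest WT value for 56 of the 85 members (65.9%), where it was the lowest WT library for 27.4% of all tested genes. It was the lowest of all 8 libraries for 33 of the 85 members and for 1521 of the 14121 tested genes. Among the 28 members with WT replicates 1 to 3 all above the 4 KO libraries, WT replicate 4 reached the KO range in 26 (92.9%). Over all genes of that pattern it did so in 697 of 2430 (28.7%). In the opposite pattern, WT replicates 1 to 3 all below KO, it reached the KO range for 3 of 11 members (27.3%) and 509 of 2431 genes (20.9%).

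The clearest cases were members that did not pass the test with all libraries. Rpl22l1, the paralog of Rpl22, read 1731, 1384, 1670 and 637 in WT and 543, 733, 772 and 704 in KO. Rps13, a 40S protein near the subunit interface, read 4550, 4459, 4522 and 2667 in WT and 3184, 2994, 2921 and 2845 in KO. Rps4x, an X-linked 40S protein, read 13445, 13620, 13051 and 8870 in WT against 12826, 11650, 11853 and 12035 in KO. In each of the 3, WT replicates 1 to 3 lay above all KO libraries and WT replicate 4 lay within or below the KO range.

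Without WT replicate 4, 6 members were higher in KO and 19 lower, against 11.9% and 11.3% of all genes. The members' share of lower calls was then 22.4% and their median log2 difference -0.13, with -0.003 over all genes. The 19 included Rpl22l1 (-1.22 ± 0.14, adjusted p = 0.00128), Rps27rt (-1.36 ± 0.20, 0.00326), Rps13 (-0.60 ± 0.07, 0.00115) and Rps19 (-0.54 ± 0.10, 0.00832), as well as the 4 called with all libraries. By subunit the 19 were 8 of 35 small and 11 of 50 large. Rpl30 and Rps4l joined the risers and Rpl36a left them (adjusted p = 0.0577). Which libraries are used thus decides how many members are called lower. WT replicate 4 was singled out from the members' own values. The counts and adjusted p-values without it are therefore a description and no support for a fall. Beta cell markers summed to 16.1% in WT replicate 4, inside the range of the other WT libraries, and acinar markers to 0.446%, also inside it. It was the highest WT library for alpha (2.98%), delta and PP (0.489%), duct (0.0189%) and stellate cell markers (0.0412%), each below every KO library. It was also the highest WT library for endothelial markers (0.0354%) and immediate early genes (1.08%). The part of these in the members' values was not tested.

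**Figure D4:**
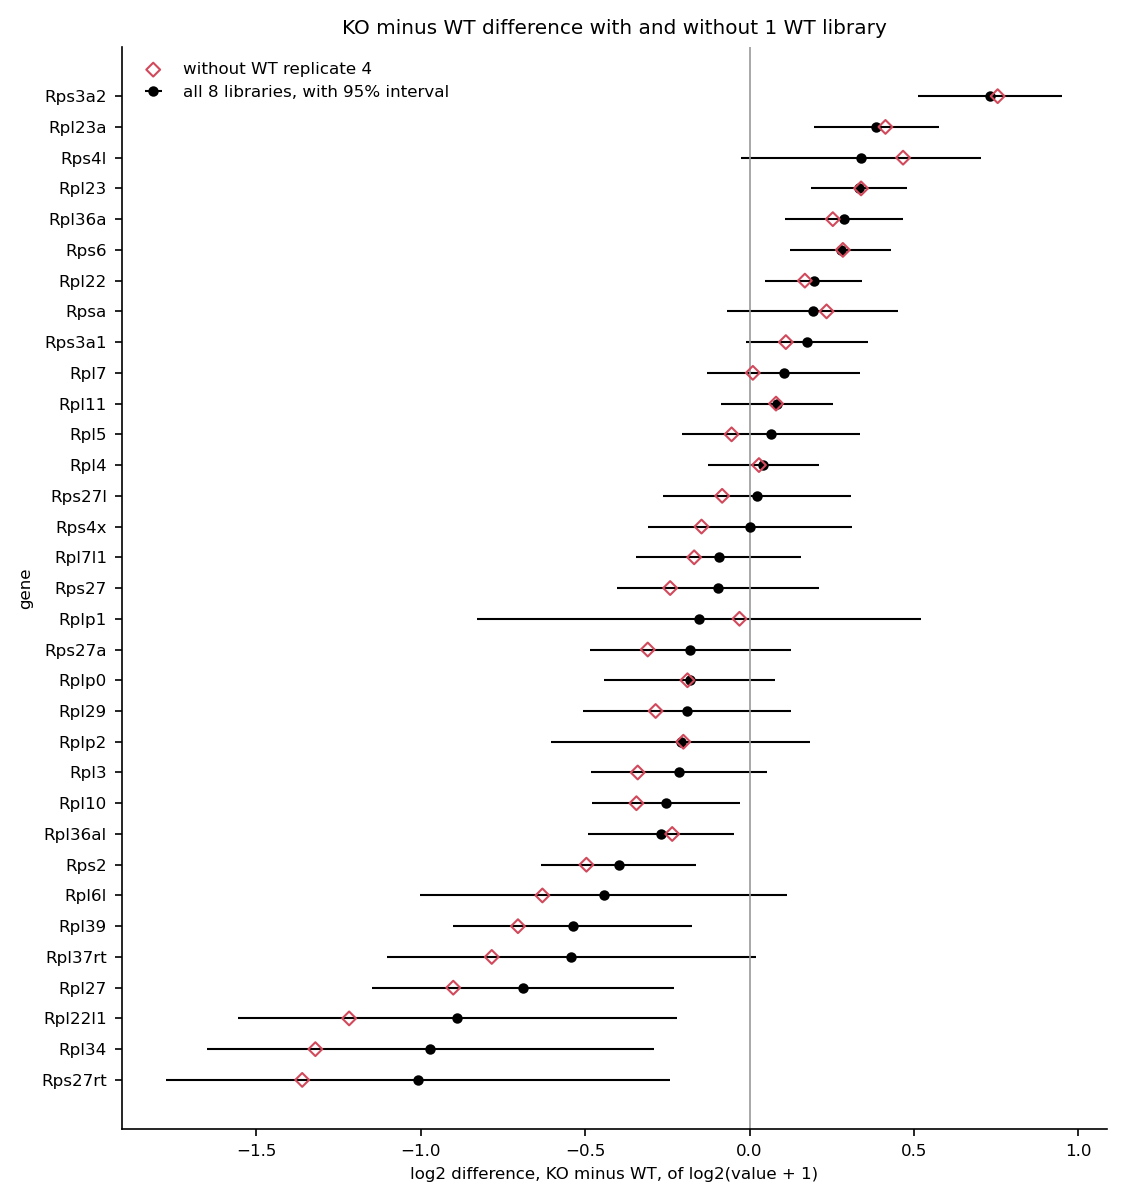
Log2 difference, KO minus WT, of log2(value + 1) for 33 ribosomal protein genes: black points are estimates from all 8 libraries with 95% intervals, and open diamonds are estimates without WT replicate 4. The diamonds lie farther left for most genes in the lower part of the plot, for example -1.32 against -0.97 for Rpl34, and close to the points for Rps3a2, Rpl23 and Rps6.

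Replicate numbers were taken as pairing, since deviations of same-numbered WT and KO libraries correlated. Libraries of different number were not compared, so pairing by number was not told apart from the 2 library sets described below. With the replicate number as a block, 5 members were higher and 10 lower (14.2% and 11.7% of all genes). Rpl22l1 (adjusted p = 0.0483) and Rps19 (0.0442) were then among the lower ones. KO and WT values did not overlap at all for 8 higher and 2 lower members, against 13.6% and 12.3% of all genes. The 2 lower ones were Rps2 and Rps29, and the 3 higher ones without a call were Rpl22, Rps3a1 and Rps23. The authors' deposited table lists 5 members higher and 12 lower at an FDR under 0.05, beside 16.2% and 13.1% of the 14121 genes. Its 12 include Rpl34 (log2 fold change -1.06), Rpl27 (-0.72), Rpl39 (-0.55), Rps2 (-0.40) and Rpl22l1.

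Among the members grouped by role, at the peptide tunnel exit 1 of 7 rose (Rpl23a) and 1 fell (Rpl39), too few to set beside the 11.1% and 9.81% of all genes. Rpl5 and Rpl11, which carry 5S rRNA into the ribosome and can bind Mdm2 when free, did not pass. Rpl5 read 10419, 10564, 9594 and 7285 in WT and 9211, 10003, 10177 and 9858 in KO, and Rpl11 had means of 6285 ± 271 and 6668 ± 498 (SD, n = 4). Rps27a, made as a fusion with ubiquitin, read 7480, 7230, 6792 and 4995 in WT and 5012, 5897, 6347 and 5944 in KO, with a difference of -0.18 ± 0.14. Of the 6 paralogs and copies of the list that were in the table, among them Rps27rt, Rpl7l1 and Rps27l, none passed limma's test. An unadjusted p under 0.05 was found for 3 of the 6, beside 35.0% of all genes. That list does not hold Rps3a2, the copy called higher above. Rps27rt read 231, 214, 159 and 74 in WT and 74, 83, 63 and 90 in KO (-1.01 ± 0.34, adjusted p = 0.0654). It is a single-exon gene whose sequence holds all 252 coding bases of Rps27 unchanged, and it amounted to 2.37% of their WT sum.

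Libraries fell into 2 sets, replicates 1 and 2 against replicates 3 and 4, a split noticed in these data and named in no label. Immediate early genes, which switch on within minutes of handling or stimulation, summed to 0.0325% to 0.0813% of the total in replicates 1 and 2 and to 0.555% to 1.08% in replicates 3 and 4. With genotype in the model, 9.38% of all genes were higher and 6.06% lower in replicates 3 and 4. None of the 85 members was higher and 1 was lower. It was Rpl7l1, a paralog of Rpl7 with a role in ribosome assembly, with mean values of 1485 in replicates 1 and 2 and 1246 in replicates 3 and 4 (-0.25 ± 0.07, adjusted p = 0.0474). That call was lost when any 1 library other than KO replicate 1 was left out (adjusted p up to 0.132), and with equal library totals (0.0940). Before adjustment 3 members (3.53%) had a p under 0.05 between the sets, against 29.6% of all genes.

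The KO minus WT difference was also read within each set. In replicates 1 and 2 alone 6 members were higher and 14 lower (12.2% and 10.8% of all genes), and in replicates 3 and 4 alone 6 and 5 (11.4% and 11.4%). Rps3a2 was called higher in both. Rpl23a passed in replicates 1 and 2, and Rpl23 and Rpl36a passed in replicates 3 and 4. WT replicate 4 is 1 of the 2 WT libraries of its set, so the count of lower members there moves with it.

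Of the proteins of the stalk that recruits elongation factors, Rplp1 and Rplp2 had differences of opposite sign in the 2 sets, and Rplp0 did not. Rplp1 read 2245, 4020, 4437 and 4818 in WT and 4703, 4155, 3075 and 2095 in KO. Replicate 1 was the lowest WT library and replicate 4 the lowest KO library, and the difference was 0.56 in replicates 1 and 2 and -0.86 in replicates 3 and 4. Rplp2 read 2130, 2524, 2944 and 2571 in WT and 2951, 2334, 2014 and 1639 in KO, with differences of 0.18 and -0.60. Rplp0 read 11090, 13829, 12852 and 12320 in WT and 12354, 12160, 10668 and 9135 in KO, with differences of -0.01 and -0.35.

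Rpl36 (60S) had the smallest unadjusted interaction p of the members, with 1022, 1366, 1715 and 1756 in WT and 1364, 1351, 1021 and 824 in KO. Its difference was 0.20 in replicates 1 and 2 and -0.92 in replicates 3 and 4. Rps26, a 40S protein at the mRNA exit, read 1455, 1962, 2136 and 2566 in WT and 2963, 2690, 2321 and 1987 in KO, with differences of 0.74 and -0.12. None of the 85 members passed limma's test of the interaction between genotype and set (adjusted p = 0.0845 for Rpl36, 0.116 for Rplp1, 0.118 for Rps26 and 0.131 for Rplp2), where 14 genes of the table did (0.0991%). At an unadjusted p under 0.05 there were 18 members (21.2%) and 2652 genes (18.8%). Rpl36, Rps26 and the other genes outside the stalk were picked for this description after their values were seen.

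**Figure D5:**
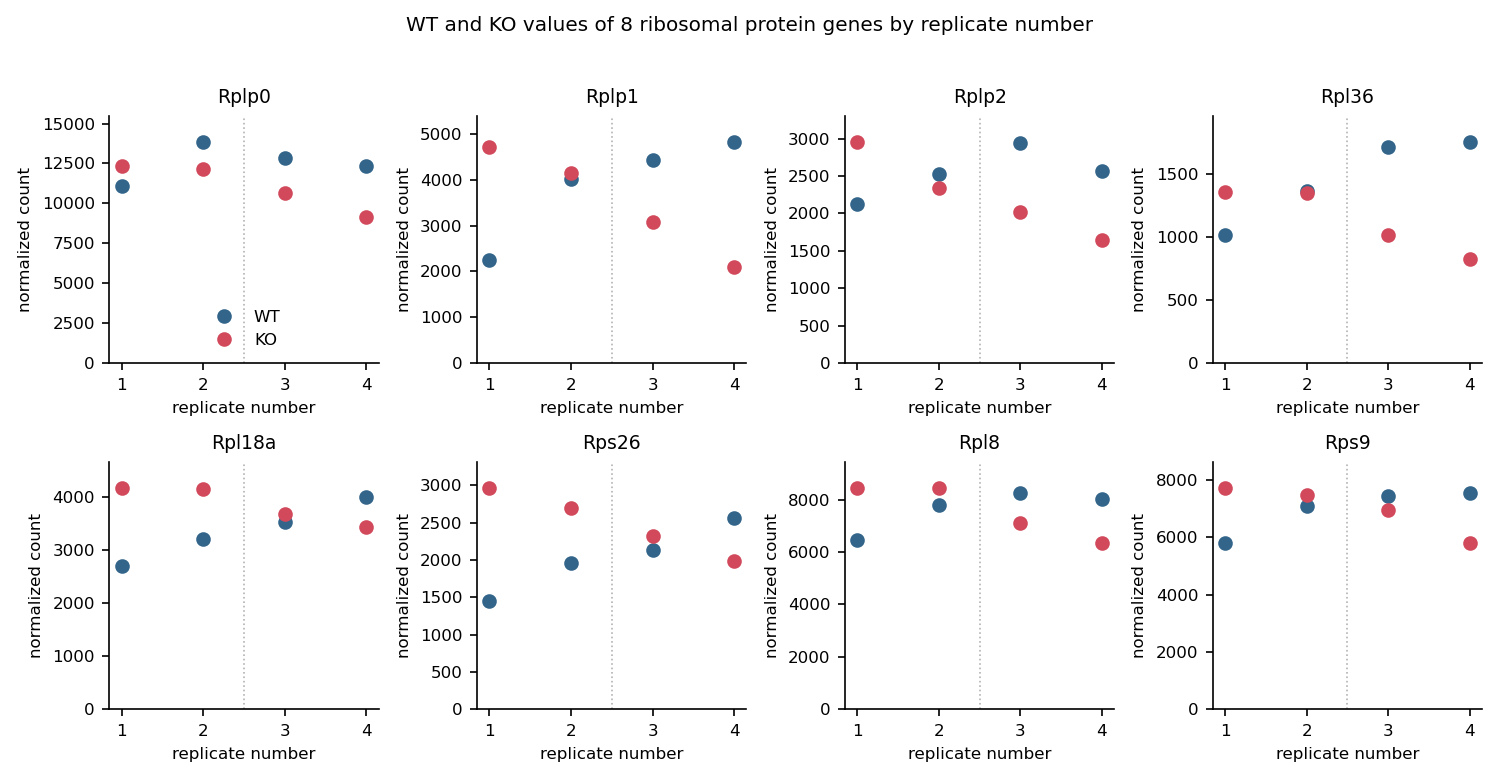
Normalized counts of 8 ribosomal protein genes against replicate number in WT (blue) and KO (red), with a dotted line between replicates 1 and 2 and replicates 3 and 4 (linear axes from 0). In Rplp1, Rplp2 and Rpl36 KO lies below WT in replicates 3 and 4 and at or above WT in replicate 1.

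Of 120 other genes of the translation machinery and its control, in 7 lists, 5 rose (4.17%) and 3 fell (2.5%), against 11.1% and 9.81% of all genes tested. Fau, which encodes a 40S protein fused to a ubiquitin-like protein, and Rack1 did not, and Rack1, the 40S scaffold protein, had means of 10271 ± 1213 in WT and 8943 ± 646 in KO (SD, n = 4). Of 21 further genes with a 5′ terminal pyrimidine tract, such as elongation factors, 2 rose, and the median difference was 0.04. Npm1, a nucleolar chaperone of ribosome assembly, read 3750, 3774, 3673 and 4335 in WT and 5883, 5129, 5935 and 6151 in KO. Its log2 difference of 0.57 ± 0.09 (adjusted p = 0.00217) held without each library in turn. Btf3, a subunit of the nascent polypeptide-associated complex at the tunnel exit, read 2854, 2725, 2958 and 2721 in WT and 3228, 3319, 3824 and 3967 in KO (0.34 ± 0.09, adjusted p = 0.0213). Both had groups without overlap. The call of Btf3 was lost without WT replicate 2, KO replicate 3 or KO replicate 4 (up to 0.0639). The elongation factor Eef1a1, the most abundant of the list, did not pass, at 123798 ± 9420 in WT and 139847 ± 6416 in KO (SD, n = 4).

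Of 54 ribosome biogenesis factors measured, 1 rose and 1 fell. Ebna1bp2, a 60S assembly factor, rose by 0.28 ± 0.07 (adjusted p = 0.0178), and Emg1, a methyltransferase of 18S rRNA, changed by -0.27 ± 0.08 (0.0427). Ebna1bp2 lost its call without WT replicate 2 or KO replicate 4 (up to 0.0585), and Emg1 without any 1 of WT replicates 1 to 3 and KO replicates 1, 3 and 4 (up to 0.116) or with equal library totals (0.0801). The median difference of the list was -0.05. Of 20 genes of mTOR and MYC control, Sesn2, a stress-induced inhibitor of mTORC1, rose and Tsc1, a subunit of the complex that restrains mTORC1, fell. Sesn2 read 860, 1029, 1499 and 1056 in WT and 2011, 2078, 1826 and 1909 in KO (0.84 ± 0.15, adjusted p = 0.00538). Tsc1 read 3116, 3269, 2672 and 2629 in WT and 2331, 2319, 2066 and 2078 in KO (-0.41 ± 0.09, 0.0161). Both calls held without each library in turn. Mycn, at low values of 13, 12, 20 and 35 in WT and 61, 71, 41 and 36 in KO, rose by 1.41 ± 0.41 (0.0388), and the call was lost with the replicate block (0.0591) and without any 1 library other than WT replicate 4 (up to 0.0962).

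None of the 4 measured snoRNA host genes and none of 11 ribosome quality control genes passed limma's test. An unadjusted p under 0.05 was found for 0 of the former and 2 of the latter, beside 35.0% of all genes. The differences of all 11 quality control genes were negative, from -0.23 to -0.08, beside 50.1% of all genes. These 11 share libraries and are not independent. Of 7 dedicated chaperones of ribosomal proteins, Bccip, a chaperone of Rpl23, fell from 1485 ± 178 to 1178 ± 80 (SD, n = 4; -0.33 ± 0.10, adjusted p = 0.0435). That call was lost without any 1 of WT replicates 1 to 3 and KO replicates 1, 3 and 4 (up to 0.112) and with equal library totals (0.0733). Over the 7 lists together, with the replicate block 5 genes rose (4.17%) and 7 fell (5.83%), against 14.2% and 11.7% of all genes.

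As a description across the 85 members, which share libraries and are not independent, the KO minus WT log2 difference had a Pearson correlation of 0.26 and a Spearman correlation of 0.28 with log2 transcript length. Against the log2 WT mean the values were 0.34 and 0.24, and the WT mean enters both axes there. These are weak relations, and the one with length depends on the transcript chosen for each gene.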

How the data were processed

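Per the labels, RNA was extracted from hand-picked islets of 4 WT and 4 KO mice, and the libraries were prepared with standard Illumina protocols. The authors' tools, as their processing notes at submission list them, were STAR 2.5.3a, RSEM 1.2.31, bcl2fastq 2.20 and edgeR 3.16.15 on GRCm38.p5. Neither settings nor library strandedness were found in the sources used here. Deposited by the authors was 1 table with 8 columns of normalized counts rounded to whole numbers, treated as a score and not as raw counts, so no count test was run. The same table gives the authors' log2 fold change, log2 CPM, likelihood ratio (a score), p-value and FDR. Depth per library is unknown, and precision rests on the spread between 4 libraries.

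From these values limma-trend (limma 3.58.1, R 4.3.3) was fitted to log2(value + 1). It took the 14121 genes at 1 or more in 4 or more libraries, and p-values were adjusted over them by Benjamini and Hochberg (threshold 0.05). On this scale the differences of low genes are understated. The main model had genotype alone. The others had the replicate number as a block, the library set as a term, or an interaction. Same-numbered WT and KO libraries had deviations correlated at 0.329, 0.585, 0.666 and 0.383 over 13080 genes with a mean above 50. The block takes the numbers as pairing on that ground alone, without a comparison to libraries of different number. Other pseudocounts, filters, scalings and each library left out were tried. The fit was tested on simulated data. Only genes at high values were changed there, and libraries of a genotype shared the same means. That test therefore does not bear on low genes, on an outlying library or on the library sets. The series' design text gives 4 mice per group, taken as separate animals. The members, gene lists and library sets were chosen with earlier results of these data known. Members were named by size of called change (up to 10 each way), from a fixed list of ribosomal proteins, and as the 5 highest and 5 lowest means, and companion genes as up to 4 called per list. Names outside this rule (Rpl35a, Rps13, Rps19, Rps26, Rps29, Rps23, Rpl30, Rpl36, Rpl41 and the -ps rows) were chosen after their values were seen. Paralogs were aligned with Biopython 1.88 to GENCODE M21 transcripts. Promoter windows are RefSeq's. One companion gene is not reported here.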

Additional observations from a re-analysis of the deposited data

Results flagged for a closer look

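Within the 4 libraries of a genotype, a value was picked out where its gap to the nearest other library over the group's range exceeded Dixon's 95% critical value for 4 libraries. This was done for 68 groups, which are the 33 named ribosomal protein genes and the members' summed share of the library in each genotype, and chance alone picks about 1 group in 20. In 5 of the 7 cases found the library was WT replicate 4, on the low side. The gap was 0.935 of the range for Rps3a1, 0.881 for Rpl3, 0.880 for Rps4x, 0.869 for Rpl10 and 0.859 for Rpl34. The other cases were WT replicate 1 for Rps3a2 (0.878, on the low side) and KO replicate 3 for Rps6 (0.905, on the high side). Over all 85 members WT replicate 4 stood apart on the low side for 11 (12.9%) and on the high side for 0. Over the 14121 genes it did so for 87 (0.616%) and 93.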

How the results depend on the processing

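No called difference changed its sign under any alternative, and 2 pseudocounts (0.1 and 10) and 2 filters (none, and at least 10 in 4 libraries) moved no count by over 1.5 times. The count of members lower in KO (4 with the settings used) was 1 with equal library totals, 0 with equal totals that leave out hormone and mitochondrially encoded genes, 2 after quantile normalization, 10 with the replicate block, 7 with library set as a term, 14 in replicates 1 and 2 alone and 12 in the authors' deposited table. Leaving out 1 library at a time gave 0 to 19, the 19 without WT replicate 4. The count of members higher in KO (5) was 8 without hormone and mitochondrially encoded genes, 9 after quantile normalization and 8 with the set term, and 3 to 7 without 1 library. Companion genes lower in KO (3) numbered 1 with equal totals, 0 without hormone and mitochondrially encoded genes, 7 with the replicate block, 8 with the set term, 6 in replicates 1 and 2 alone, 8 in replicates 3 and 4 alone and 5 in the authors' table, and 1 to 8 without 1 library. Companion genes higher in KO (5) numbered 2 to 7 without 1 library. Members lower in replicates 3 and 4 (1) numbered 0 with equal totals, with median-of-ratios factors and without the genotype term, and 0 to 2 without 1 library. Members with an interaction (0) numbered 0 to 2. With hormone and mitochondrially encoded genes left out of the total, the members' share was 2.34% in WT and 2.37% in KO, and after quantile normalization it was 1.54% in KO. The replicate block ended the call of Rpl36a, Rpl22l1 gained one, and no other of the 33 named members changed. The cause of these shifts was not tested. Depth is unknown, so counting error could not be separated from the spread between mice.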
